A study of Homo sapiens with 8 samples.

Results

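The transcripts described here are those of the nuclear genes for the proteins of the mitochondrial ribosome, in HSC39 cells after RNA interference against TRIM44. Members were all probe sets whose only gene symbol is MRPL or MRPS followed directly by a number. This rule took 74 probe sets of 73 genes, out of 19158 probe sets with exactly 1 symbol and 32321 in all. By symbol, 49 probe sets of 48 genes belong to the large subunit (MRPL) and 25 probe sets of 25 genes to the small subunit (MRPS). All 74 were tested, with no filter on level. A further 5 probe sets shared with a second gene and 1 pseudogene were not counted.

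HSC39 is a line from a human signet ring carcinoma of the stomach. The groups were 4 arrays of cells given All stars negative SiRNA, a control siRNA, 2 arrays of TRIM44 siRNA 7 and 2 arrays of TRIM44 siRNA 9, all on Affymetrix Human Gene 1.0 ST arrays. The labels' protocol gives 100 nM (written nm) of siRNA and 48 h. That protocol text names TRIM44 siRNA for every sample, and the series text calls the comparison cells untreated, so the groups here follow the sample labels. All groups are of 1 cell line. The design counts 4 biological replicates per condition, both TRIM44 reagents together, and does not say what separated them, so a p-value weighs a difference only against the variation among these 8 samples, part or all of which may be technical.

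The mitochondrial ribosome translates the few messages of the mitochondrial genome, which encode membrane subunits of the respiratory chain and of ATP synthase. Its RNAs are transcribed in the organelle, while its proteins are encoded in the nucleus, made in the cytosol and imported. Many of its proteins have bacterial relatives that carry the same number, and others are found only in mitochondria. The large subunit forms peptide bonds, and the small subunit binds and decodes the message. Promoters of such housekeeping genes tend to lack a TATA box and to hold sites for ETS-family factors, NRF1 or YY1.

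Promoter sequences of 5 members are shown because these genes carry the results that follow. They are the 3 members with an unadjusted p under 0.05 for TRIM44 siRNA against negative siRNA, and the 2 below 0 with the smallest p for siRNA 9. Each runs from 120 bases before the annotated gene start to 30 bases after it, or to the end of a motif match that crosses that point. They are RefSeq sequences of GRCh38.p14 in the direction of transcription, and capitals mark matches on either strand to the ETS-type core CCGGAAG or to AAGATGGCG, the letters of a common YY1 site, which also contain a start codon.
MRPL50, chr9:101398587-101398738, minus strand: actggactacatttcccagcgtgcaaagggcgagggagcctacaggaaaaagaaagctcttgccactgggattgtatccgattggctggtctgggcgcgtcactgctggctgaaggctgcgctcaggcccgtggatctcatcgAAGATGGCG
MRPL18, chr6:159789692-159789841, plus strand: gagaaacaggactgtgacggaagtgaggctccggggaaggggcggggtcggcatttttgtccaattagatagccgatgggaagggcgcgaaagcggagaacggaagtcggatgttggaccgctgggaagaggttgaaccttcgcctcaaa
MRPS18A, chr6:43687762-43687911, minus strand: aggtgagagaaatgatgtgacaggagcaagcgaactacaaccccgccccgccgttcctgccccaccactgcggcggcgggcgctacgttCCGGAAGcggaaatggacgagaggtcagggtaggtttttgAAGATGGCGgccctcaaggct
MRPL38, chr17:75904855-75905004, minus strand: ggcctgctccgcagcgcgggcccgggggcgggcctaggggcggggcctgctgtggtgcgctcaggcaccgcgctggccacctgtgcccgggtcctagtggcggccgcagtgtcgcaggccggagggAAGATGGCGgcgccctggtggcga
MRPS23, chr17:57850015-57850164, minus strand: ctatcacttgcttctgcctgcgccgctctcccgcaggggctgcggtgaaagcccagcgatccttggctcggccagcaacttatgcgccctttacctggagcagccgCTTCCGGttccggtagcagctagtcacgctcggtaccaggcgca

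In these windows AAGATGGCG began 24 bases into the MRPL50 transcript, 10 into MRPS18A and 7 into MRPL38, counted from 1 at the annotated start. CCGGAAG stood 31 bases before the start of MRPS18A, and its reverse complement CTTCCGG began 14 bases before the start of MRPS23. The MRPL18 window held neither motif. MRPL50, whose values were higher with TRIM44 siRNA, and MRPS18A and MRPL38, whose values were lower, thus all carry the YY1-type letters.

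Of the 73 genes, 66 had an entry in the promoter table. The genes without one were MRPL2, MRPL10, MRPL13, MRPL15, MRPL21, MRPL23 and MRPL35. Over the full window of 250 bases before to 50 after the start, both strands searched, CCGGAAG was found in 28 of 66 members (42.4%), against 14.6% of 14228 promoters of genes tested here and 10.7% of all 27305 promoters in the table. It was in 16 of 41 large-subunit and 12 of 25 small-subunit promoters. AAGATGGCG was in 12 of 66 (18.2%), against 2.87% of genes tested and 1.85% of all promoters. GCGCATGC, the centre of the NRF1 site, was in 6 of 66 (9.09%), against 4.18% of genes tested and 3.27% of all. TATAAA was in 2 of 66 (3.03%), against 9.0% of genes tested and 12.0% of all. Matches of different motifs may overlap and were counted for each. An opposite-strand gene start lay within 1000 bases upstream of 20 of 66 members (30.3%), against 19% of genes tested and 16.6% of all promoters. A match is a run of letters and no measurement of binding.

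Members with and without a motif overlapped in their differences. The 28 members with CCGGAAG had a median log2 difference of -0.03 for TRIM44 siRNA (range -0.32 to 0.12), and the 38 without it had 0.02 (range -0.16 to 0.45). By reagent, these medians were 0.07 and 0.06 with siRNA 7. With siRNA 9 they were -0.11 (range -0.37 to 0.14) and -0.01 (range -0.33 to 0.45), a gap that was not tested. The 12 with AAGATGGCG spanned the whole range, from -0.32 for MRPS18A to 0.45 for MRPL50, with a median of 0.00.

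TRIM44 itself checks the labels. Its log2 values were 11.91, 12.02, 11.91 and 11.77 on the negative arrays, 10.85 and 11.27 with siRNA 7, and 11.10 and 11.14 with siRNA 9. All 4 siRNA arrays lay below all 4 negative arrays. The difference was -0.81 for both reagents together (limma adjusted p = 0.0449), -0.84 for siRNA 7 (adjusted p = 0.0405) and -0.78 for siRNA 9 (adjusted p = 0.0155). The call in the joint comparison was lost without any 1 array other than siRNA 7 replicate 2, with adjusted p between 0.0587 and 0.291 in those fits. The siRNA 7 call held only without negative array 2 or siRNA 7 replicate 2, and was lost without any other single array (adjusted p 0.0525 to 0.122). The siRNA 9 call was lost without either siRNA 9 array (adjusted p = 0.24 and 0.203). Array medians lay between 6.78 and 6.87, and pairs of arrays correlated at 0.991 to 0.997. The leading principal component held 32.5% of the variance, and on it negative array 2 (13.6) lay beside the siRNA 9 arrays (15.5 and 17.2), and the other 5 lay between -11.8 and -5.57. Results in which this array stood apart from its group are also given without it. Epithelial markers had negative-group means of 10.36 to 13.08 over 8 probe sets. Markers of leukocytes, endothelium and fibroblasts had 2.92 to 9.90 over 12, with PTPRC at 4.25 and LUM, a fibroblast proteoglycan, highest. Brightness differs between probe sets for the same amount of RNA, and a dim probe set cannot be told from an absent transcript.

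The members were bright transcripts. Of the 74, 73 were in the upper 50% of the probe sets tested by mean level, a background added after the data were seen, with means from 5.96 to 12.67 on the log2 scale. The exception was MRPS18C, whose values lay between 5.63 and 6.41. Their median standard deviation within groups was 0.109 for the large subunit and 0.0896 for the small subunit, against 0.124 for all probe sets and 0.111 for the upper 50% by level. The large subunit's spread was thus close to that of other bright probe sets. After group means were removed, pairs of members correlated at 0.160 on average over the 8 arrays, against 0.0354 for pairs of all probe sets and 0.223 for cytosolic ribosomal proteins. The 8 arrays share their normalization and cell line, so this is a description of how the members vary together from array to array.

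**Figure D1:**
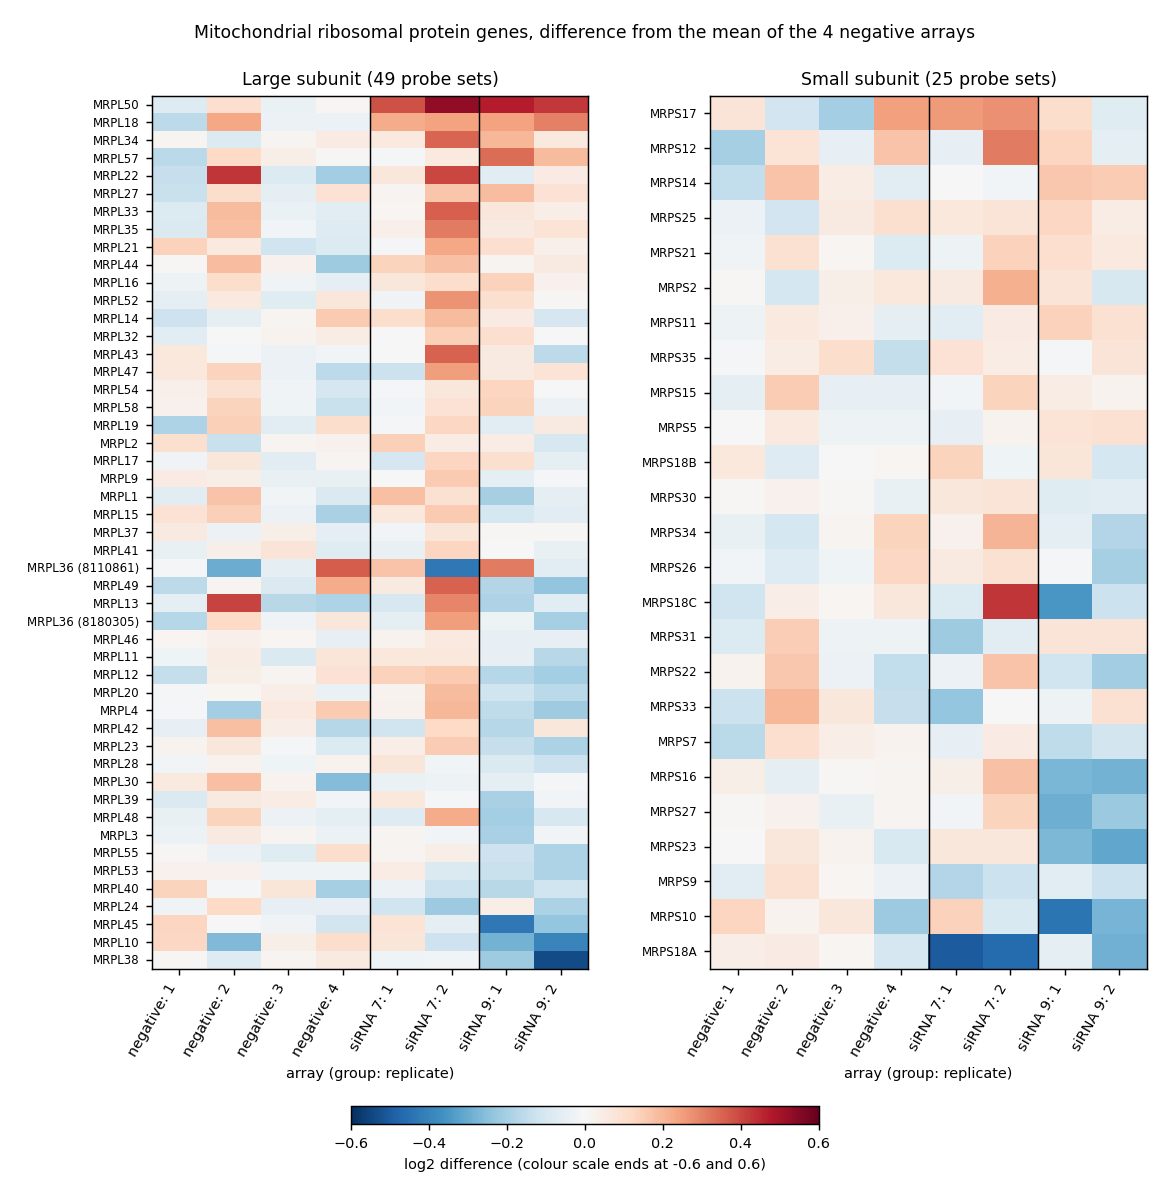
Log2 difference of each of the 74 member probe sets (rows, ordered within each subunit by the TRIM44 siRNA difference) from the mean of the 4 negative arrays, in each array (columns; red higher, blue lower). MRPL50 was high on all 4 siRNA arrays, MRPS18A was lowest on the siRNA 7 arrays, and the column of siRNA 7 replicate 2 is red for 56 of 74 probe sets.

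For TRIM44 siRNA against negative siRNA, both reagents together, the median difference of the mitochondrial ribosomal protein transcripts lay near 0. This joins medians of opposite sign, 0.07 with siRNA 7 and -0.03 with siRNA 9. Of the 74 members, 35 lay above 0 with siRNA 7 and below 0 with siRNA 9. No member passed an adjusted p of 0.05 in the limma fit, where 1 of 19158 probe sets (0.00522%), TRIM44, did. An unadjusted p under 0.05 was reached by 3 of 74 members (4.05%), against 5.43% of all probe sets and 7.27% of the upper 50% by level. They were MRPL50 and MRPL18, which were higher, and MRPS18A, which was lower. The median difference was 0.01 for the large subunit (26 of 49 above 0) and -0.00 for the small subunit (12 of 25 above 0), and 0.01 for all probe sets. Values of the groups did not overlap for 3 of 74 members (MRPL34 and MRPL50 above, MRPS9 below), against 2.86% of all probe sets. Their 95% intervals had a median reach of 0.20 to either side, and for 67 of 74 members the whole interval lay between -0.4 and 0.4. With array weights in the fit, 1 member (MRPL50) passed.

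MRPL50, a large-subunit protein found only in mitochondria, had the smallest p of the members. Its values were 10.46, 10.64, 10.50 and 10.55 on the negative arrays, 10.92 and 11.07 with siRNA 7, and 11.01 and 10.96 with siRNA 9. The lowest siRNA array was above the highest negative array. The difference was 0.45 (SE 0.08, 95% interval 0.29 to 0.62), or 137% of the negative level, with a limma adjusted p of 0.215 over all probe sets. Against the same 4 negative arrays it was 0.46 for siRNA 7 (SE 0.09, adjusted p = 0.115) and 0.45 for siRNA 9 (SE 0.09, adjusted p = 0.0493). The siRNA 9 value was the only call of a member in the 4 comparisons. It was lost with median centring (adjusted p = 0.0555) and in each fit that left out 1 array, except the fit without negative array 2, while the difference itself stayed between 0.42 and 0.48 in all alternatives run. Between the reagents MRPL50 differed by -0.01 (95% interval -0.25 to 0.22).

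MRPL18 belongs to the protein family that binds the small ribosomal RNA of the central protuberance in bacteria. Its values were 10.04, 10.43, 10.16 and 10.16 on the negative arrays, 10.42 and 10.44 with siRNA 7, and 10.44 and 10.50 with siRNA 9. Negative array 2 reached the level of the siRNA arrays, and the other 3 lay below them. The difference was 0.25 (SE 0.09, adjusted p = 0.855), and 0.33 without negative array 2 (adjusted p = 0.235).

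MRPL34, a large-subunit protein with a bacterial relative whose groups also did not overlap, read 8.90 to 9.03 on the negative arrays and 9.04 to 9.33 on the siRNA arrays, a difference of 0.17 (adjusted p = 0.934). MRPL57 (0.14) and MRPL27 (0.12), whose bacterial relative reaches the peptidyl transferase centre, complete the 5 large-subunit members above 0 with the smallest p. Neither passed.

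On the lower side of the large subunit, MRPL38, a mitochondria-specific protein of the central protuberance, read 8.45, 8.37, 8.46 and 8.50 on the negative arrays, 8.42 and 8.43 with siRNA 7, and 8.23 and 7.91 with siRNA 9. Only the siRNA 9 arrays were low, so the joint difference of -0.20 (SE 0.11, adjusted p = 0.967) comes from 1 reagent. MRPL10, a protein of the base of the factor-binding stalk, read 8.37, 7.98, 8.28 and 8.35 on the negative arrays, 8.32 and 8.12 with siRNA 7, and 7.96 and 7.85 with siRNA 9. Negative array 2 was nearly as low as siRNA 9 replicate 1, and the groups overlapped (difference -0.18, SE 0.12, adjusted p = 0.989). Without negative array 2 the MRPL10 difference was -0.27 (adjusted p = 0.514). MRPL45, which tethers the ribosome to the inner membrane, stood at -0.16, MRPL24 at -0.13 and MRPL40 at -0.11, all with adjusted p of 0.997 or more.

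MRPS18A is 1 of 3 human relatives of a single bacterial small-subunit protein. Its values were 11.15, 11.16, 11.12 and 11.01 on the negative arrays, 10.61 and 10.65 with siRNA 7, and 11.05 and 10.82 with siRNA 9. Both siRNA 7 arrays were below all others, while siRNA 9 replicate 1 lay within the negative range. The joint difference was -0.32 (SE 0.10, adjusted p = 0.792). For siRNA 7 alone it was -0.48 (SE 0.10, 71.8% of the negative level, adjusted p = 0.112), and for siRNA 9 -0.17 (SE 0.10, adjusted p = 0.489). Among the upper 50% of probe sets by level, with a trended and robust variance prior and with array weights, the siRNA 7 differences of MRPS18A (adjusted p = 0.0361, 0.0147 and 0.0468) and of MRPL50 (adjusted p = 0.0361, 0.0161 and 0.0369) both passed. Jointly, its relative MRPS18B stood at 0.02 (SE 0.08) and MRPS18C at -0.03 (SE 0.14), and both changed sign when single arrays were left out. With siRNA 7 neither was below 0 (MRPS18B 0.05, SE 0.10, and MRPS18C 0.18, SE 0.13). With siRNA 9 MRPS18B stood at -0.01 (SE 0.10) and MRPS18C, the dimmest member, at -0.24 (SE 0.13, limma adjusted p = 0.478). Ribosome structures place MRPS18A and MRPS30 in the large subunit, against their symbols. With both counted there, the medians for TRIM44 siRNA were 0.01 for 51 large-subunit probe sets and -0.00 for 23 small-subunit probe sets, an alternative chosen after the data were seen.

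The remaining small-subunit members with the smallest p had small differences. MRPS17, an RNA-binding protein with a bacterial relative, read 8.47, 8.28, 8.19 and 8.64 on the negative arrays, 8.65 and 8.67 with siRNA 7, and 8.50 and 8.32 with siRNA 9, a difference of 0.14 (SE 0.11, adjusted p = 1). MRPS25, a mitochondria-specific protein, read 8.27, 8.19, 8.36 and 8.40, then 8.37 and 8.38, then 8.43 and 8.35, a difference of 0.08 (SE 0.08, adjusted p = 1). Both overlapped between the groups. MRPS12, a protein of the decoding centre, stood at 0.08, MRPS14 at 0.08 and MRPS21 at 0.07. MRPS9 read 7.73, 7.89, 7.81 and 7.76 on the negative arrays, 7.62 and 7.67 with siRNA 7, and 7.73 and 7.67 with siRNA 9. These 4 siRNA values lay just under the negative ones, by less than 0.01 at the nearest pair, and the difference was -0.13 (SE 0.07, adjusted p = 0.975). MRPS10 (-0.17), MRPS23 (-0.11) and MRPS27 (-0.10) were the other 3 below 0, and for each the low values were those of siRNA 9.

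MRPL36 is the member with 2 probe sets, and they disagreed. Probe set 8180305 read 10.77 to 11.06 on the negative arrays and 10.74 to 11.19 on the siRNA arrays, with differences of 0.10 for siRNA 7 and -0.11 for siRNA 9. Probe set 8110861 read 9.11 to 9.77 and 8.98 to 9.72, with -0.13 and 0.12. Each joint difference rounds to -0.00 or -0.01 and changed sign under some settings, so no direction is given for this gene.

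**Figure D2:**
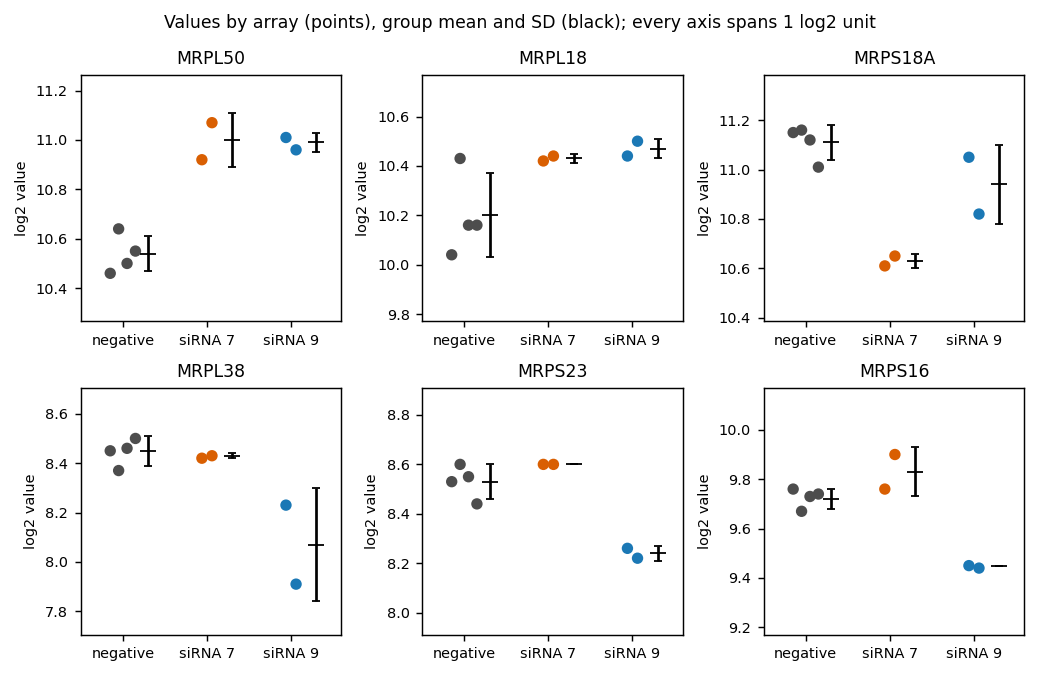
Log2 values of MRPL50, MRPL18, MRPS18A, MRPL38, MRPS23 and MRPS16 on each array (points, by group), with the group mean and SD in black (n = 4, 2 and 2); every vertical axis spans 1 log2 unit. MRPL50 was high with both reagents, MRPS18A low with siRNA 7, and MRPL38, MRPS23 and MRPS16 low with siRNA 9.

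With siRNA 7 alone, no member passed the adjusted p of 0.05, where 13 of 19158 probe sets (0.0679%) did. An unadjusted p under 0.05 was reached by 2 of 74 members (2.70%), MRPL50 and MRPS18A, against 7.46% of all probe sets and 9.73% of the upper 50% by level. Next after them, MRPS17 (0.27, adjusted p = 0.689), MRPL18 (0.23, adjusted p = 0.692) and MRPL34 (0.20, adjusted p = 0.734) lay above 0. The MRPL34 value was 0.06 without siRNA 7 replicate 2 and 0.35 without replicate 1. MRPL24 (-0.18), MRPS9 (-0.15) and MRPS31 (-0.14) lay below 0, with adjusted p of 0.800 or more.

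Most members lay slightly above 0 with siRNA 7. Their median difference was 0.07 in the large subunit (40 of 49 above 0) and 0.06 in the small subunit (18 of 25 above 0). Over the 74 together 78.4% were above 0, against 49.3% of all probe sets and 53.8% of the upper 50% by level. This shift rested on 1 array. Against the mean of the negative arrays the members' median was 0.01 for siRNA 7 replicate 1 and 0.12 for replicate 2. Without replicate 2 the medians were 0.02 for the large and -0.01 for the small subunit. Without negative array 2 the median over the 74 was 0.08, with 64 above 0. Negative array 2, set against the mean of the other 3, stood at 0.07, nearer to siRNA 7 replicate 2 than to its own group, whose other arrays stood between -0.05 and -0.01. On the same 2 arrays the median over all probe sets was -0.02 and -0.05, on the other side of 0. Over the upper 50% by level it was 0.017 and 0.019, on the members' side of 0 but smaller. Whether this array-to-array variation has a part in the shift was not tested.

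**Figure D3:**
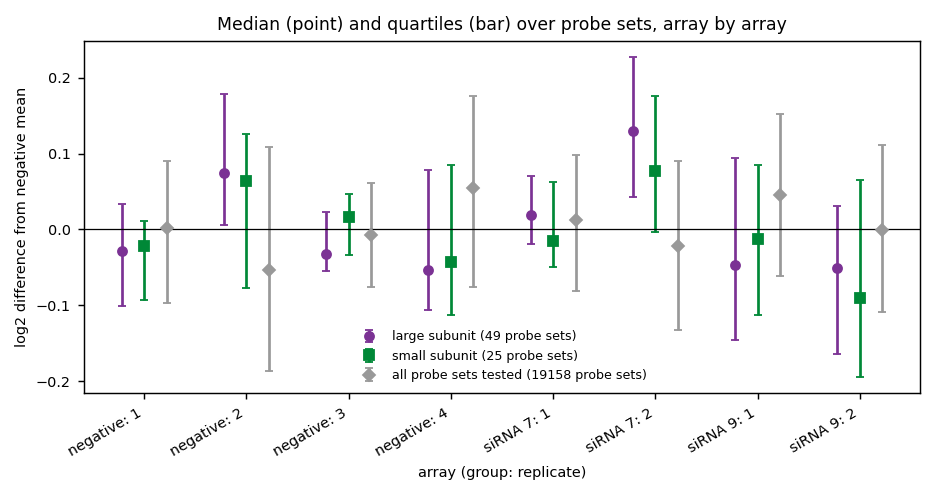
Median (points) and quartiles (bars) of the log2 difference from the negative mean, over large-subunit members, small-subunit members and all probe sets, for each array; a negative array is set against the mean of the other 3. The members' medians were highest on siRNA 7 replicate 2 and negative array 2. They were below 0 in both subunits on both siRNA 9 arrays and on negative arrays 1 and 4.

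With siRNA 9 alone, MRPL50 was the 1 member of 74 past the adjusted p of 0.05, where 177 of 19158 probe sets (0.924%) passed. Without negative array 2 the fit called 4 members (MRPL50, MRPL18, MRPL38 and MRPL10; 5.41%), where it called 1067 of all probe sets (5.57%). Without any other single array it called 0 members, and 0 probe sets in all without either siRNA 9 array, 47 without negative array 3 and 74 without negative array 1. An unadjusted p under 0.05 was reached by 10 of 74 members (13.5%), against 13.6% of all probe sets and 19.3% of the upper 50% by level. Of these 7 were lower with siRNA 9 (9.46% of members, against 5.56% of all probe sets and 8.86% of the upper 50%). The other 3 were higher (4.05% of members, against 8.05% of all probe sets and 10.4% of the upper 50%). Against the upper 50%, the members' share in both directions together was lower. Their share lower with siRNA 9 was close, and their share higher with siRNA 9 was smaller.

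The members above 0 with siRNA 9 after MRPL50 were MRPL57 (0.26, SE 0.10, adjusted p = 0.273), MRPL18 (0.27, SE 0.11, adjusted p = 0.289) and MRPS14 (0.16, adjusted p = 0.569). MRPL57 read 8.04 to 8.32 on the negative arrays and 8.54 and 8.39 with siRNA 9. Those below 0 with the smallest p were MRPL38, MRPS23, MRPL45 and MRPS16. MRPL38 was at 77.2% of the negative level (-0.37, SE 0.10, adjusted p = 0.125), and its difference was -0.53 without siRNA 9 replicate 1 and -0.21 without replicate 2. MRPS23, a mitochondria-specific protein, read 8.53, 8.60, 8.55 and 8.44 on the negative arrays, 8.60 and 8.60 with siRNA 7, and 8.26 and 8.22 with siRNA 9 (-0.29, SE 0.09, adjusted p = 0.158). MRPL45 read 11.87 to 12.11 on the negative arrays and 11.55 and 11.75 with siRNA 9 (-0.33, SE 0.10, adjusted p = 0.171). MRPS16, an RNA-binding protein of the small-subunit body, read 9.76, 9.67, 9.73 and 9.74 on the negative arrays and 9.45 and 9.44 with siRNA 9 (-0.28, SE 0.09, adjusted p = 0.174). For these 4, named for their small p, both siRNA 9 arrays lay below every negative array. The same held for 19 of 74 members (25.7%), against 9.23% of all probe sets and 14.1% of the upper 50% by level.

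As a list, the members' median with siRNA 9 was -0.04 in the large subunit (18 of 49 above 0) and -0.01 in the small subunit (11 of 25 above 0). Over the 74, 39.2% were above 0, against 56.5% of all probe sets. By array the members' median was -0.03 for siRNA 9 replicate 1 and -0.06 for replicate 2. These values lay within the range of the negative arrays or just beyond it. The array medians had a pooled standard deviation within groups of 0.0455 for the large and 0.0501 for the small subunit.

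**Figure D4:**
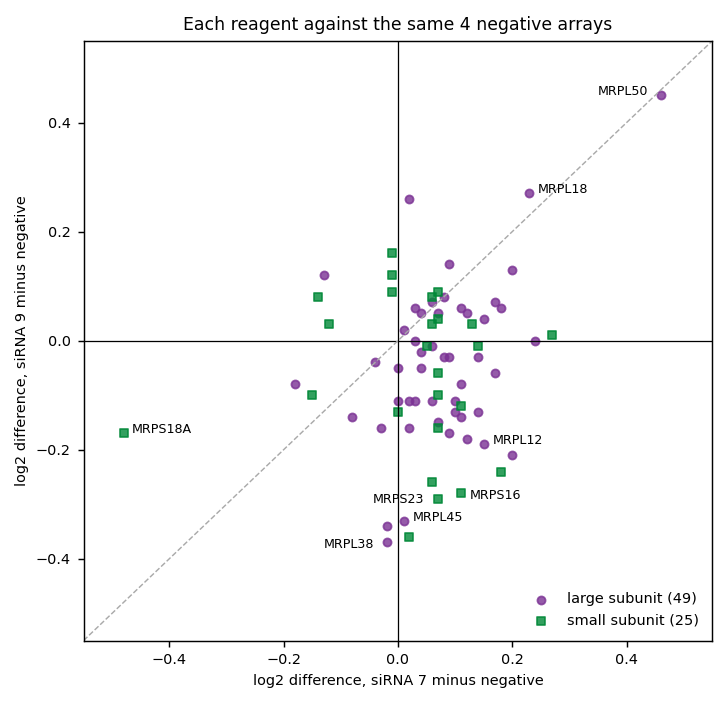
Log2 difference of each member with siRNA 7 (horizontal) and with siRNA 9 (vertical) from the same 4 negative arrays; the dashed line marks equal values. MRPL50 lies at 0.46 and 0.45, MRPS18A at -0.48 and -0.17, and MRPL38 at -0.02 and -0.37; the shared negative arrays tie both axes together.

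The difference between the reagents uses no negative array, but the negative arrays enter the estimated spread behind its p-values. No member passed the adjusted p of 0.05, where 428 of 19158 probe sets (2.23%) did. Of these 271 were higher and 157 lower with siRNA 9, against 185 and 209 with median centring. Leaving out either siRNA 9 array brought the 428 to 0, leaving out siRNA 7 replicate 2 or 1 to 47 or 194, and leaving out negative array 3 or 2 to 219 or 1050. A fit over all 32321 probe sets called 8. A fit of only the arrays compared, with no negative array, called 807 of 19158 (4.21%) and 0 members. An unadjusted p under 0.05 was reached by 15 of 74 members (20.3%), against 15.7% of all probe sets and 22.2% of the upper 50% by level. Of the 15, 14 were lower with siRNA 9 than with siRNA 7 (18.9% of members, against 6.15% of all probe sets and 10.3% of the upper 50% by level), and MRPS18A was higher. The count of 15 fell without siRNA 9 replicate 1, without siRNA 9 replicate 2 or without siRNA 7 replicate 2. It did not fall without siRNA 7 replicate 1. In these fits, in that order, the median difference between the reagents over the 74 members was -0.11, -0.10, -0.05 and -0.16. The median difference, siRNA 9 minus siRNA 7, was -0.11 in the large subunit (11 of 49 above 0) and -0.10 in the small subunit (9 of 25 above 0), against 0.03 for all probe sets. The large-subunit median was -0.05 without siRNA 7 replicate 2 and -0.17 without replicate 1.

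The lowest p belonged to MRPS16 (9.76 and 9.90 with siRNA 7, 9.45 and 9.44 with siRNA 9), at -0.38 (SE 0.10, adjusted p = 0.0733). MRPS23 followed at -0.36 (SE 0.10, adjusted p = 0.0941). Both passed without negative array 2, which left the difference as it was and changed the estimated spread (adjusted p = 0.0383 and 0.0498). MRPL12, the mobile stalk protein that recruits translation factors, read 10.65 and 10.67 with siRNA 7 and 10.34 and 10.31 with siRNA 9, at -0.34 (SE 0.11, adjusted p = 0.135). MRPS27, a pentatricopeptide repeat protein, read 10.88 and 11.03 with siRNA 7 and 10.60 and 10.67 with siRNA 9, at -0.32 (SE 0.10, adjusted p = 0.138). In these 4 members the reagents' values did not overlap, which with 2 arrays against 2 held for 40 of 74 members (54.1%), 48.6% of all probe sets and 58.6% of the upper 50% by level. MRPS18A was higher with siRNA 9 by 0.31 (SE 0.11, adjusted p = 0.191), MRPL57 by 0.24 (adjusted p = 0.358), MRPS31 by 0.22 (adjusted p = 0.382) and MRPS14 by 0.16 (adjusted p = 0.567).

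The factors that build and serve the mitochondrial ribosome were described as gene lists. In the joint comparison 0 probe sets of these lists passed in limma and 0 had an unadjusted p under 0.05, and the smallest p in each belonged to the following genes, none of them past the threshold. Among ribosomal proteins named otherwise (4 of 6 listed genes, with ICT1 counted among the members as MRPL58), the GTP-binding small-subunit protein DAP3 stood at -0.10, CHCHD1 at 0.11 and GADD45GIP1 at 0.03. Among 24 assembly and ribosomal RNA modification factors, MALSU1 stood at 0.16, MTERF4 at -0.14 and ERAL1, a chaperone of the small-subunit RNA, at -0.13. Among translation factors (13 of 14 measured), the formyltransferase MTFMT stood at 0.20, and the release-factor family members MTRF1 at 0.21 and MTRFR at 0.15. Among aminoacyl-tRNA synthetases and related enzymes (19 of 20 measured), QRSL1 stood at 0.15 and SARS2 at -0.17, and the probe sets of VARS2 disagreed (-0.17 and 0.15). Of the transcription factors and regulators (14 of 14 measured), TFAM, which packages mitochondrial DNA and acts in its transcription, stood at 0.18 and TFB2M at 0.11. GABPA, the ETS factor whose core letters are marked above, stood at 0.16 and 0.07 by its probe sets. The adjusted p of each of these genes was 0.922 or more.

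By reagent, the calls in these lists were in comparisons with siRNA 9. Against the negative arrays 1 of 25 assembly probe sets passed (0.924% of all probe sets did). Between the reagents 1 of 25 assembly and 1 of 13 translation-factor probe sets passed (2.23% of all). In these comparisons unadjusted limma p was under 0.05 for 28% and 36% of assembly probe sets. The shares were 13.6% and 15.7% of all, and 19.3% and 22.2% of the upper 50% by level. Translation factors had 15.4% and 30.8%, synthetases 10% and 5%, and regulators 6.67% and 20%. NSUN4, a methyltransferase that forms a complex with MTERF4, read 9.76, 9.55, 9.69 and 9.61 on the negative arrays, 9.81 and 9.73 with siRNA 7, and 9.17 and 9.23 with siRNA 9. It fell with siRNA 9 (-0.45, SE 0.09, limma adjusted p = 0.0457) and was lower than with siRNA 7 (-0.57, SE 0.11, adjusted p = 0.0223). The first call was lost in each fit without 1 array other than negative array 2, with adjusted p up to 0.486, and the second without any 1 siRNA array (adjusted p 0.0955 to 0.218). GFM1, the elongation factor that moves the ribosome along the message, read 9.18, 9.27, 9.27 and 9.05 on the negative arrays, 9.35 and 9.36 with siRNA 7, and 8.80 and 8.86 with siRNA 9. It was lower with siRNA 9 than with siRNA 7 (-0.52, SE 0.11, adjusted p = 0.0330), and that call was lost without any 1 siRNA array (adjusted p 0.109 to 0.273) and without negative array 1 or 3.

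The assembly list had medians of 0.06 with siRNA 7 and -0.02 with siRNA 9, close to those of the members. The translation factors had 0.07 and -0.03, and the synthetases -0.02 and -0.01. The 4 ribosomal proteins named otherwise had -0.003 (2 of 4 above 0) and 0.053 (3 of 4 above 0), none with an unadjusted limma p under 0.05. The transcription factors and regulators had 0.04 and 0.015. Cytosolic ribosomal proteins, 88 probe sets of 57 genes, had 0.01 and -0.06, with 20 of 88 above 0 for siRNA 9. In the joint comparison their median was -0.02, with RPL41 at 0.23 (adjusted p = 0.800) and RPL14 and RPL24, each by its probe set of smallest p, at -0.15 and -0.13. No list was compared with another by a test.

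**Figure D5:**
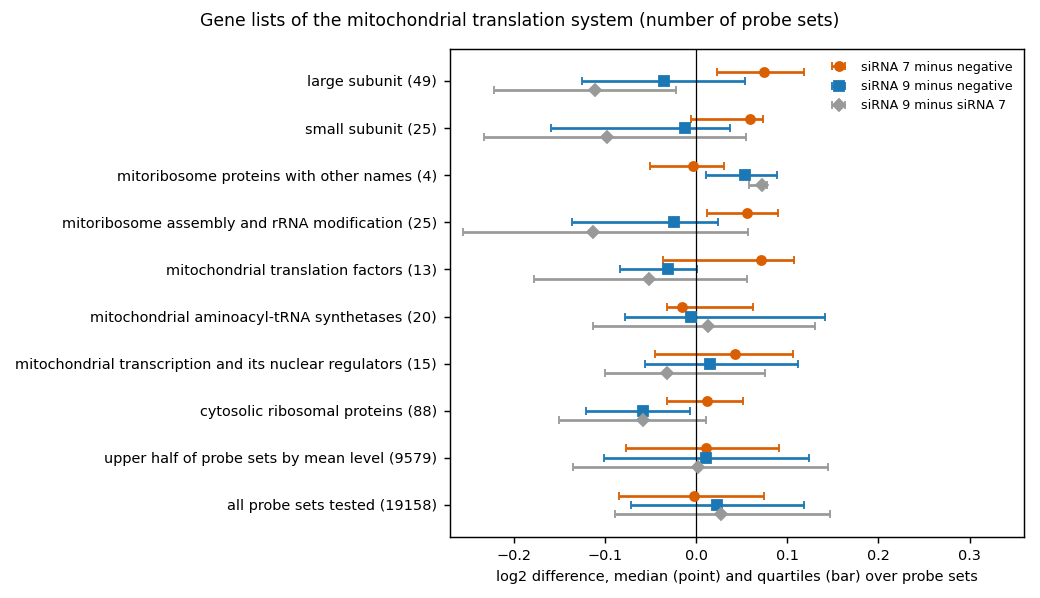
Median (points) and quartiles (bars) over probe sets of the log2 difference for siRNA 7 minus negative, siRNA 9 minus negative and siRNA 9 minus siRNA 7, for each gene list, the upper 50% of probe sets by level and all probe sets. The medians of both subunits lie above 0 with siRNA 7 and below 0 with siRNA 9. So do those of the assembly factors, the translation factors and the cytosolic ribosomal proteins.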

How the data were processed

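Expression of HSC39 cells was measured on 8 arrays (4 negative siRNA, 2 TRIM44 siRNA 7, 2 TRIM44 siRNA 9). The authors deposited 1 log2 value for each probe set on each array. The submitters' processing notes name limma, and how probes were summarised or filtered, with which genome build, was not given in the sources used here. Arrays agreed rank by rank to within 0.181, so the log2 values had been brought to nearly 1 distribution. Scanner background was not used here, so array number and dim signal limit the precision.

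Gene symbols came from the probe annotation of the platform and were looked up through their gene IDs in RefSeq annotation of GRCh38.p14 (0 changed). Promoters came from the RefSeq promoter table of the same assembly. A limma fit of 2 groups compared TRIM44 siRNA with the negative arrays, and a limma fit of 3 group means compared the reagents, 2-sided, with Benjamini-Hochberg adjustment over 19158 probe sets and a threshold of 0.05. SE is the standard error of the fit, and SD that of the arrays. The fits were tested on simulated data.

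The members, the lists and the motifs were chosen with earlier results of these data known. Named members were those past the threshold, the 5 of smallest p each way per subunit for TRIM44 siRNA, the 4 each way in the reagent comparisons, the MRPS18 genes and MRPL36; values of all arrays are given for those past the threshold and the 2 of smallest p each way per subunit. Of other lists, up to 3 genes of smallest p and those past the threshold were named. Alternatives covered normalization, filters, the variance prior, array weights, blocks, the probe set per gene and each array left out. Software was limma 3.58.1 and statmod 1.5.0 under R 4.3.3, with figures from matplotlib 3.10.9.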

Additional observations from a re-analysis of the deposited data

Results flagged for a closer look

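Differences between the reagents passed the threshold for 2 genes named here, both lower with siRNA 9 than with siRNA 7: NSUN4, with a log2 difference of -0.57, and GFM1, with -0.52 (limma, adjusted over all probe sets). Array values far from the rest of their group of 4 were found in 4 of 108 groups examined, where chance flags about 1 in 20. MTRFR on negative array 1 read 7.37, against 7.59 to 7.62 on the others. RPL24 on negative array 2 read 12.34, against 12.12 to 12.15. With siRNA 7 replicate 1, QRSL1 read 8.51, against 8.77 to 8.80, and RPL41 read 9.56, against 9.65 to 9.66. No member of the mitochondrial ribosomal protein genes was among them.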

How the results depend on the processing

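Called members changed with the setting. For both reagents together array weights gave 1 (MRPL50) in place of 0. For siRNA 7, the upper 50% of probe sets, the trended and robust prior and array weights each gave 2 (MRPL50 and MRPS18A) in place of 0. For siRNA 9, in place of 1, median centring, all probe sets and only the arrays compared gave 0, the trended and robust prior 2 and array weights 8, and leaving out single arrays 0 to 4. For siRNA 9 against siRNA 7, in place of 0, the upper 50% gave 2, the trended and robust prior 3 and array weights 2, and leaving out single arrays 0 to 2. The cause was not tested; the upper 50% tests fewer probe sets. Over all probe sets, leaving out single arrays called 0 to 1067 for siRNA 9 and 0 to 1050 for siRNA 9 against siRNA 7, array weights called 2082 for siRNA 9 in place of 177, all probe sets 28, and the trended and robust prior 405.

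Replicate numbers were also fitted as a replicate block. Same-numbered arrays deviated together at r of 0.0244 to 0.306, all above 0, and differently numbered ones at -0.306 to 0.162. In a group of 2 arrays the deviations are equal and opposite, so these values cannot decide whether the numbers mark pairs. The main fits held no block because the labels do not say what a number marks. With the replicate block 0 members and 44 probe sets in all were called for siRNA 9, 0 jointly and 0 for siRNA 7; the siRNA 9 call of NSUN4 was lost (adjusted p = 0.173), and TRIM44 stood at -0.88 (adjusted p = 0.998) jointly and -0.91 (adjusted p = 0.152) for siRNA 7; the signs of MRPS18C (0.01) and of MRPL36 (0.15 and 0.02) turned.

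TRIM44 kept its direction and lost its call jointly with median centring (-0.81, adjusted p = 0.0804), all probe sets (-0.81, adjusted p = 0.442) and siRNA identity as a random block (-0.81, adjusted p = 0.108); for siRNA 7 with median centring (-0.82), all probe sets (-0.84) and only the arrays compared (-0.84); and for siRNA 9 with all probe sets (-0.78). It was also lost in leave-one-out fits of each comparison, as given with its values. Leaving out single arrays gave -0.87 to -0.73 jointly, -1.05 to -0.63 for siRNA 7 and -0.83 to -0.74 for siRNA 9. A group left with 1 array is assumed to vary like the others.

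Leaving out single arrays moved the siRNA 7 median to 0.02 to 0.13 in the large and -0.01 to 0.08 in the small subunit, the small-subunit siRNA 9 median to -0.09 to -0.01, and the large-subunit difference between reagents to -0.17 to -0.05. It turned the sign of MRPL36 (-0.11 to 0.14 and -0.09 to 0.06), MRPS18B (-0.02 to 0.06), MRPS18C (-0.19 to 0.07), GADD45GIP1 (-0.01 to 0.05), the second probe sets of GABPA (-0.00 to 0.10) and RPL24 (-0.11 to 0.01). With MRPL36 probe set 8110861, median centring gave 0.00 and array weights 0.08.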

Other observations

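The 5 probe sets that pair a mitochondrial ribosomal protein gene or its read-through with a second gene, and the 1 pseudogene, are given as values only, since their signal cannot be assigned. The probe set of MRPL51 and SPTLC1 read 11.29 to 11.50 on the negative arrays, 11.29 to 11.45 with siRNA 7 and 11.50 to 11.51 with siRNA 9. That of MRPS6 and SLC5A3 read 8.27 to 8.53, 8.38 to 8.81 and 8.55 to 8.66. That of MRPS24 and its read-through with URGCP read 10.94 to 11.11, 11.10 to 11.12 and 11.14 to 11.16. That of URGCP and the same read-through read 6.99 to 7.21, 7.01 to 7.34 and 7.12 to 7.53. That of MRPS28 and TPD52 read 6.92 to 7.41, 6.84 to 7.45 and 6.80 on both siRNA 9 arrays. The pseudogene MRPS31P5 read 5.77 to 5.97, 5.58 to 6.05 and 5.74 to 5.88.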
